A study of Mus musculus with 26 samples.

Results

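The regions described here are the distal peaks of the Egr1 transcription factor that met no binding region of its liver neighbours C/EBPalpha and C/EBPbeta. They were taken from a chromatin immunoprecipitation and sequencing (ChIP-seq) list made 36 h after partial hepatectomy. Members were chosen by the positions of 9895 Egr1 peaks and of the C/EBP regions, which are measured values, so their place relative to both is a description and not a finding. A peak was a member when its centre lay more than 1 kb from the start of each of 20933 measured genes and when it shared no base with a region of 16 C/EBP lists. Of the Egr1 peaks, 3790 met both conditions, which is 38.3% of the list. Another 5656 distal peaks (57.2%) met a C/EBP region, and 449 had a centre within 1 kb of a gene start.

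The livers came from wild-type male C57BL6/J mice of 7 weeks, and 3 of 5 lobes were cut out. The tissue cut out served as the 0 h sample. Egr1 was assayed at 36 h. RNA polymerase II (Pol II) and both C/EBP factors were assayed at 0, 3, 8, 16, 24, 36, 48 and 168 h, with 1 library for each antibody and time. Each time point drew on 5 mice, and the labels leave unsaid whether their chromatin was pooled. There are no replicates, so no comparison below has a test or a replicate error, and 95% Wilson intervals cover counting error only. A mock immunoprecipitation at 0 h was not analysed here, so no peak could be set against it.

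Egr1 is a zinc-finger factor of the immediate early response, induced by growth signals and injury, and it binds GC-rich motifs, often close to gene starts. C/EBPalpha and C/EBPbeta are leucine-zipper factors that occupy many enhancers of hepatocyte genes. Peaks called far from genes in a ChIP-seq list can be enhancers, and they can also lie in repeated or misassembled sequence, where reads pile up for reasons unrelated to the antibody. Score, width, position and neighbours are the deposited properties by which such groups can be described.

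The 36 h liver carried Pol II in the pattern of hepatocytes. All 10 hepatocyte markers were above 0.5 signal units per bp of gene body at 36 h and their levels summed to 796.5. For Kupffer cells and macrophages 6 of 11 markers were above 0.5 (sum 4.57), for endothelial cells 2 of 11 (sum 4.05), for stellate cells and fibroblasts 1 of 11, and for bile duct and lymphocytes 0 of 6 and 0 of 11. In such bulk chromatin, fewer cells of a type and less polymerase per cell cannot be told apart.

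A set of members lay beside histone genes, most of which are too short to be among the measured genes of the rule. The file of gene positions held 66 histone genes, 58 of them left out of the rule, and 9 of those had a start within 1 kb of a member's centre. These 9 starts, all on chromosome 13, were met by 8 members with scores of 92.4 to 848.9. Of the 66 starts, 26 lay within 1 kb of a distal peak with a C/EBP region, and 10 within 1 kb of a peak of the gene-start class. For each of the 9 starts the member covered all 250 bases before it, by the positions in the deposited files. Among the 7 genes that could be matched, the 4 nearest to a peak centre were chosen. Their promoters are printed as cases of members that stand at a gene start. They are RefSeq sequences of the build GRCm38.p6, whereas the peaks are in mm9. In that build they are chr13:21787238-21787487 (plus strand, Hist1h2bp), chr13:21750554-21750803 (minus, Hist1h4k), chr13:23551669-23551918 (minus, Hist1h4f) and chr13:23752095-23752344 (plus, Hist1h3b). The 250 bases before the start are written 5′ to 3′ on the gene's strand, and capitals mark 3 motifs searched on both strands: GCGNGGGCG, a form of the Egr1 motif, TATAAA and CCAAT.
Hist1h2bp: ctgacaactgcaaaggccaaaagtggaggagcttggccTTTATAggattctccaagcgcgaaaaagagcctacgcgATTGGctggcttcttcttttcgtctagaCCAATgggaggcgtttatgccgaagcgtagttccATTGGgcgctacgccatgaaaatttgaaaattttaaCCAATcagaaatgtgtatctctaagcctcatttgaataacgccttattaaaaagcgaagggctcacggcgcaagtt
Hist1h4k: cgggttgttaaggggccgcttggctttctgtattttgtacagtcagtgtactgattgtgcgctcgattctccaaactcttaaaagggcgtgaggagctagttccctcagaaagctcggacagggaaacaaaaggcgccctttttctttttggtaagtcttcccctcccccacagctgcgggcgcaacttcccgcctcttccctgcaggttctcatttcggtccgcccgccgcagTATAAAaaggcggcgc
Hist1h4f: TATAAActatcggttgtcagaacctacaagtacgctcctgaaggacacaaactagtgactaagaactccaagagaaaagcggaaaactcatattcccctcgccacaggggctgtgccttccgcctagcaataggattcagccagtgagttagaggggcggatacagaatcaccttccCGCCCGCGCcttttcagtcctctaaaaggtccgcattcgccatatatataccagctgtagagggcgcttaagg
Hist1h3b: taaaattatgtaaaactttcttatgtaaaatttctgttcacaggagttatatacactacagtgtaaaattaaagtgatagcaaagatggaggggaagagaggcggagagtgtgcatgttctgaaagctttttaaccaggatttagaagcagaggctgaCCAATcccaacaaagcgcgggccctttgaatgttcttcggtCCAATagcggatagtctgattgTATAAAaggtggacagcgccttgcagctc

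In these windows the capitals of Hist1h4f include 1 match to GCGNGGGCG, on the other strand and 64 bases before the start. No other of the 7 matched histone windows held those letters, against 4.70% of 32851 RefSeq promoter windows of the same length. TATAAA was found in 7 of 7, against 12.4% of all windows, and CCAAT in 4 of 7, against 33.8%. The TATAAA matches had no common position: by window they lay 10, 23, 27, 131, 141, 206 and 244 bases before the start. The match at 206, in Hist1h2bp, was on the other strand and is the same stretch of bases as the match at 27, in Hist1h2an. The windows of these 2 genes face each other and share most of their bases. They are therefore not separate cases in the counts for TATAAA and CCAAT. Within each printed sequence no motif matches overlap. A match is a description of the letters and not a binding site.

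Hist1h4k, which encodes histone H4, had its start 67.0 bp from the centre of the member at chr13:21841690-21842925 (score 570.06). Hist1h4f, another H4 gene, lay 121.5 bp from the centre of chr13:23642694-23644094 (score 554.98). Hist1h3b, an H3 gene, lay 170.0 bp from chr13:23843820-23844793 (score 166.81), and Hist1h2bp, an H2B gene, 35.5 bp from chr13:21878672-21880012 (score 92.39). The highest score of the 8 belonged to chr13:21923206-21924624 (848.87), 118.5 bp from the start listed as Hist1h4m. Histone genes are near-identical copies, and the sources used here do not say how reads shared between copies were placed.

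Genes for small structural RNAs were another gene type beside members. In all, 124 members (3.27%, interval 2.75 to 3.89) had a centre within 1 kb of the start of a gene that the rule left out for its short length or shared name, against 70 (1.24%, 0.98 to 1.57) of the distal peaks with a C/EBP region. For these peaks the word distal holds only against the 20933 measured genes. Of the 124, 24 lay in the run over 5S_rRNA genes described below, 617 to 884 bp from a start. That run held 49 such entries in 84259 bp, so a distance below 1 kb there follows in part from their spacing. Of 140 genes of the spliceosomal RNA U1, 20 had a member within 1 kb, with scores from 61.7 to 3202.4 and a median of 322.8, while 4 had a distal peak with a C/EBP region. Of 46 genes of U2, also a splicing RNA, 8 had a member (median score 795.3) and 4 a distal peak with a C/EBP region. Of 15 genes of U3, which guides ribosomal RNA processing, 4 had a member (59.2 to 3100) and 2 a distal peak with a C/EBP region. For the 10 genes of U5 the counts were 2 and 2. Over all 10539 genes left out of the rule, 1.36% had a member and 0.854% a distal peak with a C/EBP region. Of 8 signal recognition particle RNA genes (SRP_euk_arch) 3 had a member. By contrast, none of 581 genes of U6, 41 of U4 and 138 of SNORD115 had a member within 1 kb, and 1 of 87 genes of 7SK did.

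The U1 cluster on chromosome 12 held the highest scores of the list. Over chr12:55810785-55840174, between 14.6 and 42.6 kb from the start of Eapp, 6 members of 1339 to 1568 bp lay 13.0 to 174.5 bp from U1 starts. Their scores were 3165.42, 2957.58, 3202.37, 2773.20, 3100 and 3100. A pair of members at U3 genes on chromosome 11, chr11:87275045-87276514 and chr11:87284448-87285415, both scored 3100 and lay 9.0 and 61.0 bp from the U3 starts. The U2 genes of chr11:101465783-101520280 carried 4 members, with scores of 544.23, 1729.54, 2716.76 and 716.19. The last of these is also the member nearest to Arl4d. As members, these 12 peaks meet no C/EBP region by the rule, and the nearest region lay 3011 bp away. U1, U2 and U3 genes have many copies, so the placement of reads among them is uncertain.

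Members took a larger share of the list at the top of the score range than in its middle. The score is the one deposited by the authors for each peak, and the list starts at 50. The median score was 99.5 for members, 104.6 for distal peaks with a C/EBP region and 107.7 for peaks at gene starts. The upper tails parted: the 90th percentile was 531 for members, 343 with a C/EBP region and 437 at gene starts. A score of at least 1000 was reached by 191 members (5.04%, interval 4.39 to 5.78), by 54 distal peaks with a C/EBP region (0.955%, 0.733 to 1.24) and by 7 at gene starts (1.56%, 0.757 to 3.18). The share of members in the list fell from 43.4% (interval 41.0 to 45.8) at scores of 50 to 60 to 33.4% (31.6 to 35.2) at 100 to 200. It was then 70.6% (63.2 to 77.0) at 1000 to 2000 and 85.4% (76.6 to 91.3) at 2000 or more. Of the 100 highest peaks 86 were members.

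**Figure D1:**
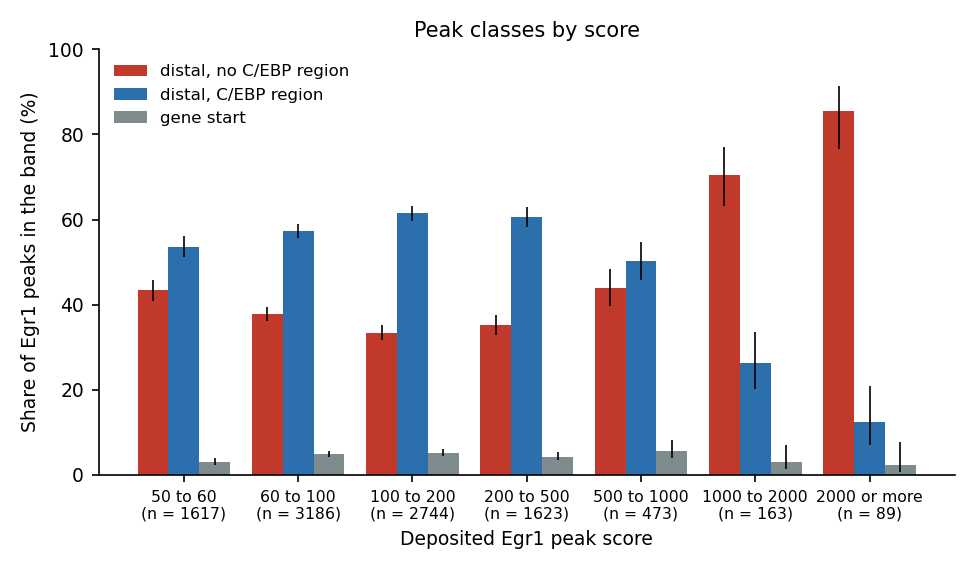
Share of each class among Egr1 peaks (vertical axis, percent) by band of the deposited score (horizontal axis, n peaks below each band), with 95% Wilson intervals as bars. Distal peaks without a C/EBP region make up 33.4% of the band from 100 to 200 and 85.4% of the band of 2000 or more.

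At the very top, 35 members had a score of 3100 or more, against 5 distal peaks with a C/EBP region and none at gene starts. Of these 35, 31 shared the value 3100 exactly and 4 lay above it: chr12:55819456-55820831 (3202.37) and chr12:55810785-55812153 (3165.42) at U1 genes, chr14:86598313-86599497 (3116.48) and chrX:121012658-121018533 (3109.80). Scores of 3100 therefore do not rank these peaks. The widest of the 31 was chr5:15112546-15141613, described with the wide peaks. The next in width were chr8:19916862-19933476 (16615 bp, 46.4 kb from 2610005L07Rik), chr8:56196833-56209229 (12397 bp, 162.8 kb from Gpm6a, a neuronal membrane glycoprotein gene) and chr5:14946483-14956883 (10401 bp, 27.3 kb from AC144480.5-2). After them came chr8:19752856-19761078 (8223 bp, 27.4 kb from AC148089.8-2) and chr1:85105567-85113659 (8093 bp, 3184.5 bp from A530032D15Rik). Distances are from the peak centre, and the last of these peaks covers the start of A530032D15Rik. The 35 peaks lay on 14 chromosomes, 22 were wider than 2 kb, 21 had another peak within 10 kb, and 9 were within 1 kb of a gene left out of the rule, 4 of them U1 and 2 of them U3. A C/EBP region lay within 10 kb of 6.

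The high scores came from peaks on both sides of a width of 2 kb. Of the 191 members at 1000 or more, 87 were 2 kb or narrower, with a median width of 1177 bp, and 62 of these stood alone, with no other peak within 10 kb. The other 104 were wider than 2 kb, with a median of 5771 bp, and 49 of them lay in runs of 5 or more peaks. Among the 54 distal peaks with a C/EBP region at that score, 43 were 2 kb or narrower and 11 wider. Of the 87 narrow members, 11 stood at U1, U2 or U3 genes, 33 had a C/EBP region within 10 kb and 67 carried none of the features by which members are marked further on. The highest of those 67 were chr12:75904581-75906012 (score 3002.14, 373 kb from Kcnh5), chr13:77577622-77578776 (2935.60, 269.8 kb from 1110033M05Rik) and chr5:60433793-60434479 (2895.62, 1766 kb from AC114918.4-1), regions chosen after their values were seen.

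Most members were of ordinary width. The median was 967 bp, against 1003 bp for distal peaks with a C/EBP region and 1112 bp at gene starts, and 80% of members lay between 669 and 1789 bp. Wide peaks were more frequent among members: 327 (8.63%, interval 7.78 to 9.56) exceeded 2 kb, against 154 (2.72%) with a C/EBP region and 29 (6.46%) at gene starts, and 88 exceeded 5 kb, against 14 and 2. The widest, chr7:67002045-67047776 (45732 bp, score 506.24), spanned SNORD116 genes, a repeated array of small nucleolar RNAs of the imprinted Snurf region, and 6 members lay within 1 kb of SNORD116 starts there. The next 3, of 35789, 35160 and 30310 bp, lay within chr1:85067398-85296412, nearest to A530032D15Rik, AC123856.4-1 and AC123856.4-3. The fifth, chr5:15112546-15141613 (29068 bp, score 3100), had its centre in a measured gene and 1099 bp from the start of Speer4d, of a rodent gene family with many copies. This peak covered that start. The rule uses centres, and 9 of 3790 members covered a measured gene start, as did 9 of 5656 distal peaks with a C/EBP region.

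**Figure D2:**
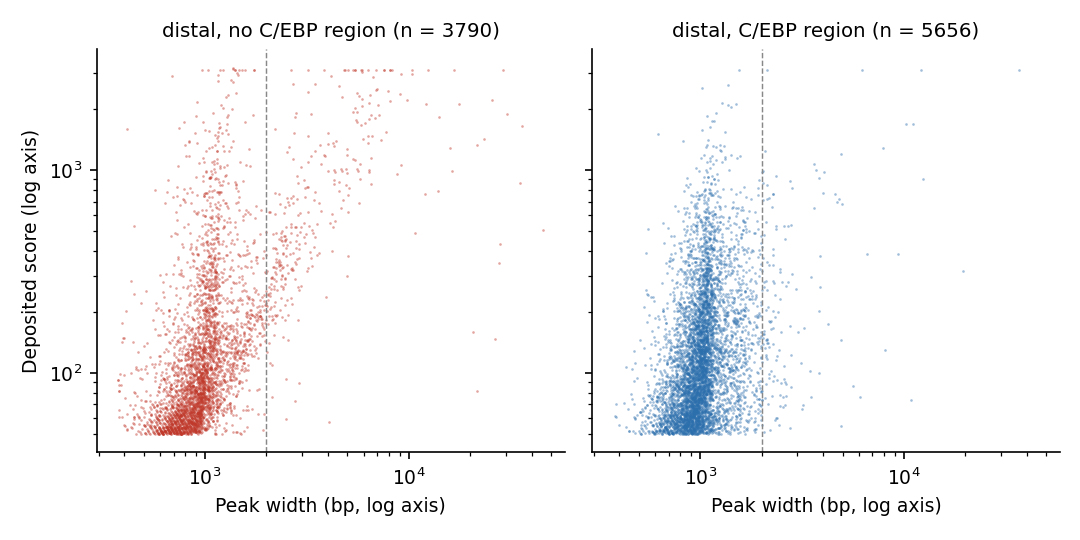
Width (horizontal, bp) and deposited score (vertical) of each distal Egr1 peak on log axes, without (left, 3790 peaks) and with (right, 5656 peaks) a C/EBP region, with a dashed line at 2000 bp. Both panels show a column of peaks near 1 kb that reaches high scores, and the left panel shows more points to the right of the line (327 against 154).

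Members were gathered in runs far more often than the other distal peaks. With peaks joined where centres lay at most 10 kb apart, 1492 members (39.4%, interval 37.8 to 40.9) had another Egr1 peak near, against 26.7% of distal peaks with a C/EBP region and 32.3% at gene starts. The excess lay in the long runs. Runs of 2 to 4 peaks held 22.5% of members and 24.8% of distal peaks with a C/EBP region, runs of 5 to 9 held 8.05% and 1.66%, and runs of 10 or more held 8.87% and 0.230%. Of all members 2298 stood alone. There were 65 runs with 5 or more members, on 8 chromosomes and 28 of them on X, and 58 of the 65 contained no C/EBP region of any list. That absence follows in part from the rule, since the members in these runs meet no C/EBP region. Only 7 runs held 5 or more distal peaks with a C/EBP region.

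**Figure D3:**
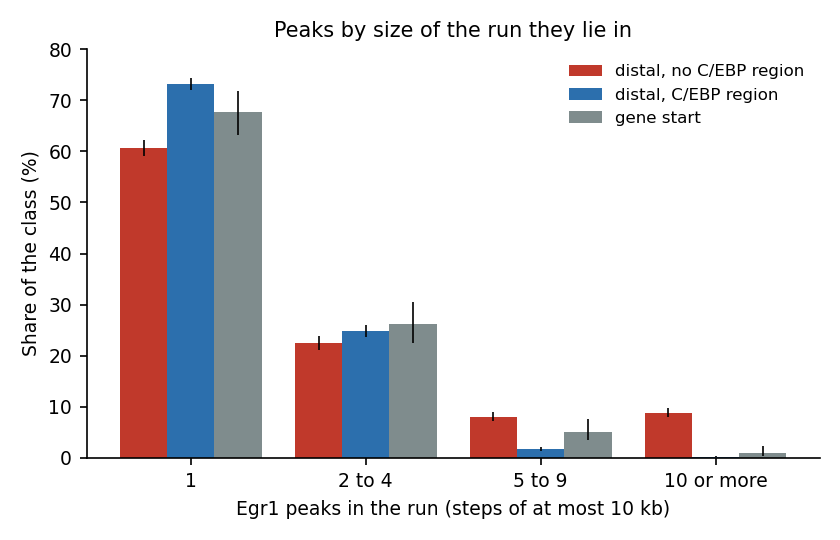
Share of each class (vertical, percent) by the number of Egr1 peaks in the run to which a peak belongs (horizontal), with 95% Wilson intervals. Members exceed distal peaks with a C/EBP region at 5 to 9 peaks (8.05% against 1.66%) and at 10 or more (8.87% against 0.230%).

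The run with the most members, 24, was chr8:126061512-126145770, between Gas8 and Rhou. It contained 49 entries of 5S_rRNA, the ribosomal RNA gene that is arranged as a tandem array, and no measured gene start. Its scores were low, from 50.1 to 151.9 with a median of 63.4, at a median step of 3319 bp. The centres of these peaks were 617 to 884 bp from the nearest 5S_rRNA start, which is farther than the 13.0 to 451 bp at U1. The second, chr8:72021465-72110918 near AI449175, had 23 members with scores of 52.6 to 2190.7 and no gene start of the file. The next 3 with most members were chrX:120525423-120596948 (19 members, highest score 2982.7, near BX088531.8), chrX:120964525-121018533 (17 members, near BX005468.9) and chr1:87398790-87472120, 1 of 3 runs with 16. The last lay beside Sp110, a member of the Sp100 family of nuclear body proteins. No C/EBP region fell in any of these 5 runs, which also follows in part from the rule.

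Members in runs of 5 or more peaks, 641 in number, differed from the 2298 that stood alone in more than their grouping. Their median score was 128.7 against 90.9 and their median width 1278 against 913.5 bp. They were inside a measured gene in 10.9% of cases (interval 8.73 to 13.6) against 29.2% (27.4 to 31.1). A C/EBP region lay within 10 kb of 9.98% of them (7.90 to 12.5) and of 48.3% (46.3 to 50.3) of the lone members. The lone members were thus the nearer to C/EBP regions, at a median gap of 10652 bp against 142769 bp.

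Chromosome X held 446 members, 11.8% (interval 10.8 to 12.8), but 46 distal peaks with a C/EBP region (0.813%). Of all Egr1 peaks 511 (5.16%, interval 4.75 to 5.62) lay on X, against 5.78% of measured gene starts, so the Egr1 list as a whole was not rich in X. The 16 C/EBP lists had 1.01% to 1.54% of their regions there, and the contrast between the classes thus follows in part from the rule. Of all Egr1 peaks on X 87.3% were members. Most lay in a single block: 298 of the 446 lay between 120 and 123 Mb, where 300 Egr1 peaks were called and 3 of the 489556 C/EBP regions. Members of this block had a median score of 139.1 and a median width of 1320 bp. Without the block X held 148 members, 4.24% of the remainder. On Y 43 members were called (1.13%), of 47 Egr1 peaks there, and 30 of them had another peak within 10 kb.

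**Figure D4:**
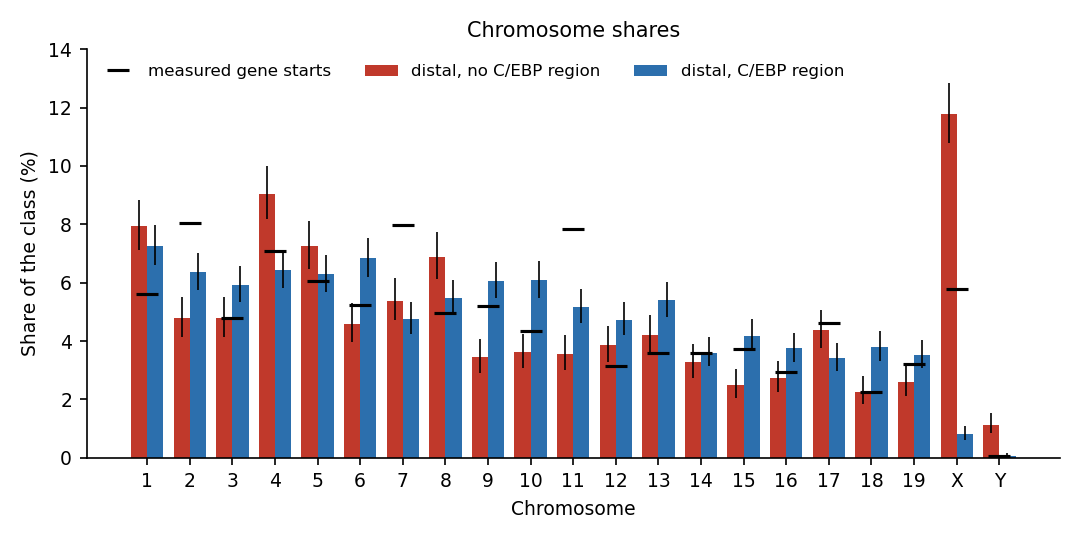
Share of distal Egr1 peaks on each chromosome (vertical, percent of the class) without and with a C/EBP region, with 95% Wilson intervals, and the share of measured gene starts as black dashes. X holds 11.8% of the peaks without and 0.813% of those with a C/EBP region, against 5.78% of gene starts.

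Other chromosomes differed less. Chromosome 4 held 343 members (9.05%) against 6.44% of distal peaks with a C/EBP region, and 8 held 6.89% (6.12 to 7.74) against 5.48%. Others held a smaller share of members than of distal peaks with a C/EBP region: 3.46% against 6.06% on chromosome 9, 3.61% against 6.08% on 10 and 4.59% against 6.84% on 6. In windows of 1 Mb, 32 had 10 or more members and together held 986 (26.0%). After the 3 windows on X the densest were 145 to 146 Mb of chromosome 4 with 62 members, 85 to 86 Mb of chromosome 1 with 49 and 146 to 147 Mb of chromosome 4 with 48. These 3 held 5, 0 and 16 C/EBP regions over the 16 lists, where the median window with an Egr1 peak held 190.5. Over the 32 windows with 10 or more members the median was 80, and some held many C/EBP regions: 673 at 73 to 74 Mb of chromosome 8 with 23 members, and 574 at 126 to 127 Mb with 25. The first 3.5 Mb of chromosomes held 89 members (2.35%, interval 1.91 to 2.88), 44 distal peaks with a C/EBP region (0.778%, 0.580 to 1.04) and 1 at a gene start.

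The features above were gathered to see what remained without them. A member was marked when it lay in a run of 5 or more peaks, was wider than 2 kb, scored 3100 or more, had its centre in the first 3.5 Mb of a chromosome, lay within 1 kb of a gene left out of the rule, or was on Y. These criteria were chosen after the values were seen. They marked 957 members (25.3%, interval 23.9 to 26.7) and 5.66% (5.09 to 6.29) of distal peaks with a C/EBP region. The remaining 2833 members had a median score of 88.8, a median width of 918 bp and a median gap of 10166 bp to a C/EBP region. In 2.36% of them (1.87 to 2.99) the score was 1000 or more, against 0.955% of all distal peaks with a C/EBP region, marked ones included. Whether mapping in repeated sequence plays a part in the marked peaks was not tested.

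The rule excludes any C/EBP region that touches a peak, but many members had one close by. The C/EBP regions were narrow, with median widths of 17 to 26 bp in the different lists. Of the members 31 (0.818%) had a C/EBP region within 100 bp, 345 (9.10%) within 1 kb and 1555 (41.0%) within 10 kb, while for 884 (23.3%) the nearest lay beyond 100 kb. The closest were chr2:77381066-77381852, 5 bp from a region and 23.7 kb from Zfp385b, and chr6:149115888-149117835, in a measured gene, nearest to Amn1 and 7 bp from a region. The third, 9 bp away, was nearest to Ndst1. On the other side of the rule, the smallest overlap was 1 bp in a single list, as at chr1:182151932-182152802 near Psen2, and 347 distal peaks (6.14%) met regions of 1 list only. By list, members within 1 kb of a region ranged from 60 (C/EBPalpha, 48 h, 20061 regions) to 197 (C/EBPbeta, 0 h, 54574 regions). At 36 h, the time of the Egr1 library, they were 81 for C/EBPalpha and 99 for C/EBPbeta.

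Members were farther from genes than the other distal peaks. The median distance to a measured gene start was 35.8 kb, against 30.3 kb with a C/EBP region. Of the members 696 (18.4%) lay within 10 kb of a start and 193 (5.09%, interval 4.44 to 5.84) beyond 500 kb, against 1.24% (0.981 to 1.56) of distal peaks with a C/EBP region. The centre was inside a measured gene body for 926 members (24.4%, 23.1 to 25.8) and for 36.7% (35.4 to 37.9) of the others. The farthest, chr1:104524619-104525053, lay 2140.3 kb from the start of Cdh20, a cadherin gene. Just beyond the 1 kb limit were members at 1009 bp from Mex3c, 1017.5 bp from Zfp458 and 1018 bp from CT033797.5, with scores of 65.9, 59.9 and 54.7. Just within it, and so not members, were peaks without a C/EBP region at 985, 952.5 and 924.5 bp from AC126681.4, C85627 and 4921505C17Rik.

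The 3790 members had 2393 distinct nearest genes, of which 1920 were nearest to 1 member and 31 to 10 or more. Those 31 genes took 703 members. The most frequent was Vmn2r121, a vomeronasal receptor gene on X, with 103 members at 7.51 to 761 kb, followed by RP23-13I18.2 with 84 at 64.9 to 763 kb. BX005468.9 had 32, 3110007F17Rik and BX088531.8 had 27 each, A530032D15Rik and BX649235.2 had 26 each, and 2610005L07Rik and AC134841.4 had 23 each. AC161410.3, AI449175 and RP23-384D6.6 tied at 22. Of the 31 genes 30 were above 0.5 signal units per bp of Pol II in none of the 8 libraries. That was so for 69.5% of all measured genes and for 72.3% of all nearest genes of members. BX005468.9, 3110007F17Rik, BX088531.8, BX649235.2 and AC134841.4 had a level of exactly 0 in all 8. Whether signal could be measured at those genes was not tested. For Vmn2r121 the 8 levels from 0 to 168 h were -0.04, -0.04, 0.00, -0.02, -0.01, 0.09, -0.01 and 0.04, all near 0. Gene families with many copies differed in how many members they had. The 54 measured Cyp2 and Cyp3 genes (cytochromes P450 of drug and steroid metabolism) were nearest to 51 members and 33 distal peaks with a C/EBP region. The 22 Serpina genes (secreted protease inhibitors) were nearest to 23 and 17, and the 7 Speer genes to 17 and 1. Counted as genes and not as peaks, these were 17 and 18 Cyp2 and Cyp3 genes, 8 and 11 Serpina genes, and 5 and 1 Speer genes. Over all 20933 measured genes, 2393 were nearest to a member and 3592 to a distal peak with a C/EBP region. Other families had few: the 169 Olfr genes (olfactory receptors) were nearest to 11 members and 6 distal peaks with a C/EBP region, the 14 Klra genes to 1 and 0, and the 13 Ugt genes (glucuronidation enzymes) to 0 and 6.

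Over all nearest genes, Pol II was less often detected than beside the other distal peaks. Levels are the authors' deposited signal divided by the width of the gene body, rescaled between libraries. At 36 h 17.9% of all measured genes were above 0.5. Of the members' nearest genes 358 of 2393 were (15.0%, interval 13.6 to 16.4), and of those of distal peaks with a C/EBP region 24.9% (23.5 to 26.3). With the nearest gene limited to 10 kb the shares were 22.0% (18.8 to 25.5) of 591 genes and 39.0% (36.2 to 41.9) of 1120 genes. Within 10 kb the share was lower beside members than beside the other distal peaks in each of the 8 libraries. Both shares were lowest at 3 h, at 15.6% and 27.4%, where all measured genes also had their lowest share, 14.7%, and where the deposited signal over all entries added up to less than 0. The 2 gene sets overlap: 796 genes were nearest to a peak of both kinds, 33.3% of the members' genes and 22.2% of the others.

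**Figure D5:**
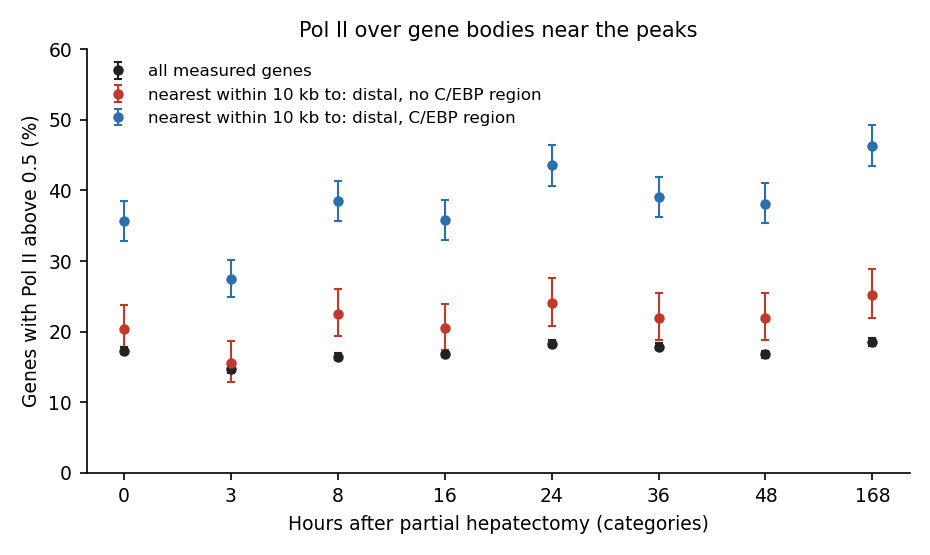
Share of genes with a Pol II level above 0.5 signal units per bp (vertical, percent) in each of 8 libraries (horizontal, hours, spaced as categories), for all measured genes and for genes nearest to a distal Egr1 peak within 10 kb, with 95% Wilson intervals. At 36 h the values are 17.9%, 22.0% without and 39.0% with a C/EBP region.

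At 36 h, Pol II changes near the members were close to those of all genes. Among 4761 genes above 0.5 in at least 2 libraries, 16.5% were higher by 1 or more on the log2 scale at 36 h than at 0 h and 11.1% were lower. Of 497 nearest genes of members past that filter, 69 (13.9%) were higher and 54 (10.9%) lower, with a median change of 0.20 against 0.12 over all. Within 10 kb, 31 of 169 genes (18.3%) were higher and 17 (10.1%) lower. These shares are near the background and no result about the members is read from them. Changes are of log2(level + 0.5) with levels below 0 set to 0, and they compare single libraries.

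At 168 h the shares near members were farther from those of all genes. Of the 497 genes 124 (24.9%) were higher than at 0 h by 1 or more and 64 (12.9%) lower, against 17.7% and 19.3% of the 4761, with a median change of 0.39 against 0.00. Genes nearest to distal peaks with a C/EBP region had similar values, 23.5% higher and 9.86% lower of 1177, with a median of 0.41. These counts depend on the rescaling between libraries. Without it 6.79% of the members' genes past the filter were higher at 168 h and 25.9% lower, against 6.15% and 35.2% of all. At 3 h 65 (13.1%) were higher and 129 (26.0%) lower, against 18.1% and 21.4% of all genes and 17.5% and 25.4% beside distal peaks with a C/EBP region. The changes at 3, 36 and 168 h share the 0 h library, so they are not separate evidence, and no difference between gene sets was tested.

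The largest rises within 10 kb of a member included liver, growth and histone genes. Serpina1e, which encodes an alpha-1 antitrypsin, had levels of 0.68, 10.30, 6.52, 3.38, 5.25, 7.34, 7.52 and 2.63 from 0 to 168 h, a change of 2.73 at 36 h. The 0 h level was the lowest of the 8. Its member, of score 1328.61 and 3649 bp wide, lay in a run of 4 peaks and 3099 bp from its start. Egfr, the receptor of the epidermal growth factor family that acts in liver regeneration, had 1.4, 5.54, 11.59, 2.61, 13.01, 8.52, 11.46 and 8.90, a change of 2.25 at 36 h, and 3 members of which the nearest (score 90.57) lay 7344 bp away. All 7 later levels of Egfr were above that of 0 h. Hist1h1d, a linker histone gene, rose from 2.35 to 11.21 (change 2.04) and lay 3510 bp from the member at Hist1h4f. Cyp2c29, a cytochrome P450, had 0.06 at 0 h, 2.19 at 36 h and at most 0.99 in the other 6 libraries, so its change of 2.26 rests on the 36 h library. Ccbl1 (change 2.63), Amn1 (2.48), Zgpat (2.47) and Zfp445 (2.14) completed the 8.

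The largest falls were led by 2610204G22Rik, from 4.10 at 0 h to -1.22 at 36 h (change -3.20), and Cyp2a5, a cytochrome P450, whose levels were 2.60, -0.09, 0.51, -0.02, 0.15, -0.01, 0.12 and 2.39. Cyp2a5 was thus low from 3 to 48 h and back near its first level at 168 h, a change of -2.63 at 36 h, and it was nearest to 4 members. Serpina6, the corticosteroid carrier of plasma, went from 1.63 at 0 h to -0.18 at 36 h (change -2.09), and its 168 h level was 2.55. Arl4d, a small GTPase gene, had 19.68 at 0 h and 3.19 to 6.87 in the other libraries (change -1.89). Cyp2d10 went from 12.34 to 3.30 (change -1.76). BC021614 (-2.16), 1810058I24Rik (-2.15) and CR974568.14-2 (-1.77) made up the rest. Serpina1, Cyp2a, Cyp2c and Cyp2d genes have near-identical copies, so their levels are uncertain.

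Lists of genes of liver regeneration and metabolism were searched for nearest genes of members. Of all measured genes 7.71% were the nearest gene of a member within 50 kb, and 13.0% that of a distal peak with a C/EBP region. Among genes linked to Egr1 the members reached 2 of 39, Cd44, a hyaluronan receptor, and Ccnd1, the G1 cyclin D1, both about 35.5 kb away, while distal peaks with a C/EBP region reached 14 of 39. Ccnd1 levels were 3.28 at 0 h and 3.11 at 36 h. Replication and G1/S genes counted 2 of 30, Mcm5, a subunit of the replicative helicase, at 6.39 kb and Ccne1, cyclin E1, at 13.5 kb. Mitosis genes counted 1 of 23, Birc5 (survivin), at 5.97 kb. For distal peaks with a C/EBP region the counts were 1 of 30 replication and G1/S genes and 3 of 23 mitosis genes. Mcm5 had its highest level, 0.64, in the 36 h library and was below 0 in the other 7, and it did not pass the filter. Ccne1 was above 0 at 36 h alone (0.29) and Birc5 at 36 h (0.26) and 48 h (0.38). These 3 lists have 1 or 2 nearest genes of members each, too few to read a difference from the share of all measured genes.

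For acute phase genes the members reached 3 of 23: Serpina3n, Serpina1a and Lbp. Distal peaks with a C/EBP region reached 18 of the 23. Serpina3n, an antichymotrypsin induced in inflammation, had 3.43, 149.86, 58.34, 26.63, 9.16, 15.66, 40.61 and 10.18 from 0 to 168 h, highest at 3 h, and a member 21.7 kb away and 478 bp from a C/EBP region. Lbp, the lipopolysaccharide binding protein, rose from 1.53 to 5.91 at 36 h (change 1.66) with a member 5.17 kb away. Of the 21 acute phase genes past the filter, 17 were higher by 1 or more at 36 h, with a median change of 1.81. Cholesterol genes counted 3 of 19, Fdps, Sc4mol and Insig1, each with 1 member at 7.91 to 8.28 kb, while distal peaks with a C/EBP region reached 6. Fdps, which makes farnesyl pyrophosphate, went from 1.73 to 5.61 (change 1.46), Sc4mol, a sterol methyl oxidase, from 0.48 to 1.51 (1.04), and Insig1, a brake on sterol synthesis, from 14.58 to 15.41 (0.08). Of the 18 cholesterol genes past the filter, 5 were higher by 1 or more, with a median change of 0.88. Liver transcription factors counted 2 of 20, Onecut1 and Nr1i2, plasma protein genes 1 of 22, Serpind1, and clock genes 1 of 17, Npas2, with no change of 1 or more at 36 h for Onecut1, Nr1i2 and Serpind1. Npas2 did not pass the filter. In these 3 lists, distal peaks with a C/EBP region reached 8 of 20, 11 of 22 and 9 of 17 genes.

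Among markers of cell types the members reached 2 of 10 for hepatocytes, Serpina1a with 8 members and Cyp3a11 with 9. Distal peaks with a C/EBP region reached 9 of the 10. Cyp3a11, a main drug-metabolising cytochrome, had 2.18, -0.07, 1.61, 1.53, 2.69, 18.74, 1.86 and 4.48 from 0 to 168 h, so the 36 h library stood alone. Its nearest member (score 414.14, 2198 bp) lay 11.6 kb from the start of Cyp3a11. That member was in a run of 10 peaks that spans this start. For endothelial cells 3 of 11 were reached, Pecam1, Cdh5 and Vwf, by 3 members in all within 50 kb. None of these 3 genes was above 0.5 in any library, and the peak next to Pecam1 (score 59.24) stood 90.5 bp from a U3 gene. The distal peaks with a C/EBP region also reached 3 of the 11. No marker of Kupffer cells, stellate cells, bile duct or lymphocytes was the nearest gene of a member within 50 kb.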

How the data were processed

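ChIP-seq lists of mouse liver were used as deposited: 1 Egr1 list, 16 C/EBP lists and 8 Pol II gene files. Positions are in mm9. The submitters' processing notes list Bowtie 0.12.7 and MACS 1.4.1 without saying what each did. The deposited Egr1 score (minimum 50) and the C/EBP score are the authors' own and rank peaks only within their list. For each gene, a deposited Pol II file holds a signed signal score. Its values behave as a sum over the gene body beyond its first 500 bp. The sources used here do not give background subtraction, control libraries or batches, and without read counts the depth is unknown.

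Gene starts came from rows of the Pol II files with a width of at least 500 bp and a unique name, moved back 500 bp by strand (20933 of 31804 rows). Overlap meant 1 shared bp and was checked with bedtools 2.31.1. Egr1 centres at most 10 kb apart were joined into runs. Pol II signal was divided by body width, rescaled between libraries (median of ratios, 1472 genes above 0.5 throughout), and compared as log2(level + 0.5). Rescaling moved changes against 0 h by -0.01 at 36 h and by 0.97 at 168 h. Intervals are Wilson 95% intervals, and interval functions were tested on simulated data. Scripts used Python 3 with numpy and scipy.

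The members and the 14 gene lists (264 genes) were chosen with earlier results of these data known. Named were the 10 highest and 5 widest members (ties at 3100 broken by width, after values were seen), the 5 runs with most members (1 of 3 tied at 16), those nearest each limit of the rule, their nearest genes, the 10 genes nearest to most members, list genes within 50 kb, and the 8 largest Pol II rises and falls within 10 kb. The 7 of 9 histone genes with the same strand and chromosome in RefSeq were matched to promoters. Peak sequences in mm9 were not used here.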

Additional observations from a re-analysis of the deposited data

How the results depend on the processing

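Of 48 values under alternative settings, 26 stayed within the interval of the reported value, or within 1.5 times a reported count, and 22 did not. Of these values, 21 come from alternatives chosen after seeing the data. The number of members ranged from 3445 to 4988 over 7 settings and was 1885 at a score of 100 or more. That threshold also gave a median width of 1120 bp, 14.9% of members on X and 7.85% on chromosome 8. Without the members carrying a marked feature the medians were a score of 88.8, a width of 918 bp and a gap of 10166 bp to a C/EBP region, and 28.7% lay inside a measured gene. Without the X block from 120 to 123 Mb, X held 4.24% of members and 34.6% of members had another peak near. That last share was 30.4% at 5 kb and 60.4% at 50 kb. Without the C/EBPbeta list of 0 h the median gap was 22116 bp. With 500 bp added to each gene body and every gene row used, 27.2% of members lay inside a gene. The share of nearest genes above 0.5 in Pol II at 36 h was 17.8% for genes within 50 kb and 16.6% without rescaling. A pseudocount of 0.05 gave 156 nearest genes higher and 84 lower at 36 h, where all genes past the filter gave 30.0% and 17.0%. It also gave 217 lower at 3 h (all genes 35.0%) and 198 higher at 168 h (28.6%). Rescaling moved changes at 168 h by 0.97. Without it 32 were higher and 122 lower at 168 h, where all genes past the filter gave 6.15% and 35.2%. Why the libraries differed in scale was not tested. No paired analysis was possible because each antibody and time point has 1 sample. No replicate could be left out for the same reason.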
